A study of Mus musculus with 6 samples.

Results

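Cholesterol and fatty acid synthesis was examined in mouse skin through 30 genes chosen by symbol: 18 genes of the path from acetyl-CoA to cholesterol, 6 regulators of that path and 6 genes of fatty acid synthesis. All 30 were found among the 54146 Ensembl gene IDs of the files, and all 30 were among the 28389 genes tested, which had a mean of at least 0.1 FPKM (a fragment density that corrects for exon length and sequencing depth). The skin came from 3 mice under chronic restraint stress (CRS), a rodent model of psychological stress in which the animal is repeatedly confined, and from 3 control mice (CON), both sampled after 12 weeks. The sources used here give neither the strain, sex or age of the mice nor the site of the skin. Each library was treated as 1 animal, since the design describes 3 CRS and 3 CON mice.

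Cells make cholesterol from acetyl-CoA by way of mevalonate, isoprenoid diphosphates, squalene and lanosterol, and they make fatty acids from the same precursor. Both paths are controlled by the SREBP transcription factors, which are held in the endoplasmic reticulum by Insig proteins while sterol is plentiful and are carried to the Golgi by Scap for cleavage when it is scarce. In skin, cholesterol and fatty acids are needed for the lipid barrier of the epidermis and for sebum, the secretion of the sebaceous glands. In whole skin, fewer cells of a type and less RNA per cell cannot be told apart.

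Depth recovered from the FPKM values was 19.2 to 25.7 M fragments in CRS libraries and 13.3 to 19.9 M in CON libraries. Markers of epidermis summed to 3317 to 4520 FPKM in CRS libraries and 2720 to 3221 FPKM in CON libraries, so the tissue label and the transcripts matched. CRS replicate 2 and CON replicate 1 stood apart. In CRS replicate 2, among genes of at least 1 FPKM, the median difference from the CON mean was 0.64 log2 units for exon lengths of 7500 nt and over and -1.04 for those under 1500 nt. In CRS replicates 1 and 3 the same medians were -0.66 and 0.22. In CON replicate 1, mitochondrially encoded genes took 15.3% of fragments, against 2.50% to 4.19% in the other 5 libraries, and skeletal muscle markers summed to 14016 FPKM, against 490.0 to 2788 FPKM elsewhere. CON replicate 1 also held Xist, expressed from the inactive X of females, at 2.80 FPKM beside Y-linked Ddx3y at 22.5 FPKM, where Xist was at most 0.168 FPKM in the other libraries. Whether that library holds RNA of 1 mouse was not tested.

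No gene of the module passed the test between CRS and CON skin (limma on log2(FPKM + 0.1), two-sided, Benjamini-Hochberg adjustment over all genes tested, adjusted p = 0.9999 for each of the 30). Over all genes, 0 passed as well (0.0%), and the unadjusted p was under 0.05 for 261 genes higher in CRS and 462 genes lower. Limma voom on recovered fragments also passed 0 genes, and 218 were higher and 338 lower at that level. Of the 30 genes, 16 (53.3%) had a log2 fold change above 0 and 14 below 0. Above 0 were 32.2% of all genes tested and 25.9% of genes of at least 1 FPKM. Of the 30, 0 had an unadjusted p under 0.05, where 0.919% of all genes were higher and 1.63% lower. The median log2 fold change was 0.0043 for the 30 genes and -0.20 for all genes tested, a distance of 0.20. The range ran from -0.61 for Fdps to 0.40 for Fasn, and single mice moved both: Fdps was at -0.12 without CRS replicate 3 and Fasn at -0.28 without CRS replicate 2. The 95% intervals reached between 0.60 and 1.39 log2 units to either side of the estimate. For 16 of the 30 genes the whole interval lay between -1 and 1, and for the others it reached past 1 log2 unit on at least 1 side. In 29 genes the groups overlapped, and in 1, Acat2, they did not. Among all genes the groups did not overlap in 6.84%, with CRS higher in 1.65% and lower in 5.19%.

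**Figure D1:**
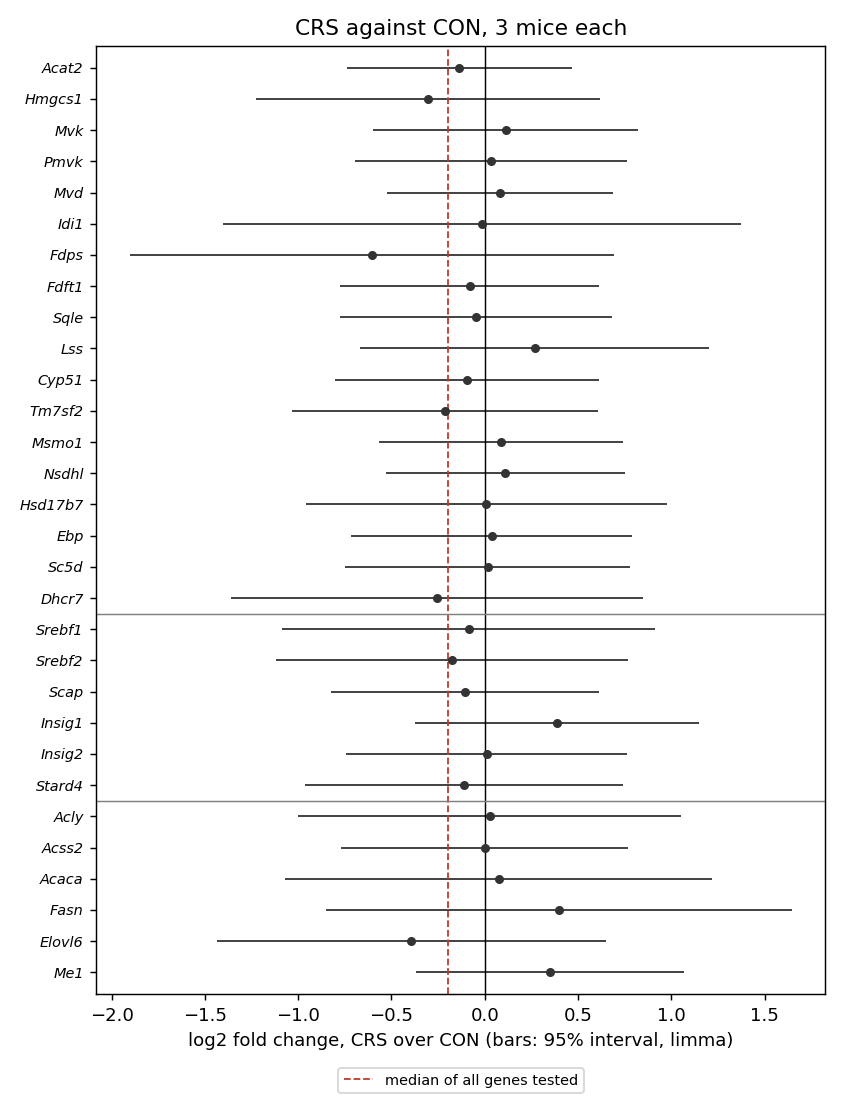
Log2 fold change of each gene, CRS over CON on log2(FPKM + 0.1), with its 95% limma interval (3 mice per group). Every interval crosses 0, and the dashed line marks the median of all genes tested at -0.20.

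The sterol genes differed more in level than between groups. Summed over the 18 genes, sterol synthesis stood at 329.4, 416.6 and 344.2 FPKM in CRS mice and at 337.6, 372.7 and 392.4 FPKM in CON mice. The means were 363.4 ± 46.7 FPKM in CRS and 367.5 ± 27.8 FPKM in CON (SD, n = 3 each), and the CRS values bracketed the CON values. By fold change, 9 sterol genes were above 0 and 9 below, with a median of -0.0035. FPKM values are per merged exon length, so that levels of different genes are set side by side only roughly: the merged length was 4208 nt for Fdps and 6144 nt for Msmo1, whose longest coding transcripts have 1382 and 2044 nt.

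The first steps make mevalonate. Acat2, the cytosolic thiolase that joins acetyl-CoA units, was at 28.2, 28.4 and 28.9 FPKM in CRS mice and at 32.4, 31.4 and 30.4 FPKM in CON mice. All 3 CRS values lay below all 3 CON values, and the means were 28.5 ± 0.38 FPKM in CRS and 31.4 ± 1.03 FPKM in CON (SD, n = 3 each). The log2 fold change was -0.14 (SE 0.26), with an exact two-sided permutation p of 0.1, the smallest that 3 against 3 mice allow. Relative to the median of all genes the direction was the other way, and under median-of-ratios scaling the log2 fold change was 0.10. The highest Acat2 value was 1.15 times the lowest over the 6 libraries, and 3 of the 14371 genes of at least 1 FPKM varied less. Of its longest coding transcript, 65.6% was matched at 95% identity or more by transcripts of Acat3 and Tcp1. Acat3 was at 0.111 to 0.365 FPKM in CRS and 0.214 to 0.586 FPKM in CON, and Tcp1 at 23.3 to 41.2 FPKM in CRS and 29.2 to 47.0 FPKM in CON.

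Hmgcs1, the cytosolic HMG-CoA synthase, had the highest mean of the 30 genes. It was at 39.3, 91.1 and 39.4 FPKM in CRS mice and at 62.0, 55.3 and 77.6 FPKM in CON mice. CRS replicate 2 was above every CON mouse and CRS replicates 1 and 3 were below every one. The log2 fold change was -0.30 (SE 0.40).

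Mevalonate is phosphorylated and decarboxylated by Mvk, Pmvk and Mvd. Mvk, mevalonate kinase, was at 21.4, 16.7 and 19.4 FPKM in CRS mice and 12.9, 20.2 and 21.0 FPKM in CON mice. Pmvk, the next kinase, was at 39.3, 23.7 and 39.7 FPKM in CRS mice and 29.2, 36.2 and 32.6 FPKM in CON mice. Pmvk was lowest in CRS replicate 2, the reverse of Hmgcs1. Mvd, the decarboxylase, was at 25.1, 24.6 and 26.1 FPKM in CRS mice and 22.2, 24.9 and 24.5 FPKM in CON mice. Its highest value was 1.17 times its lowest, and 6 of the 14371 genes varied less. For Mvk, Pmvk and Mvd the fold changes on the log2 scale were 0.11 (SE 0.31), 0.03 (SE 0.32) and 0.08 (SE 0.26).

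Isoprenoid diphosphates are made by Idi1 and Fdps. Idi1, the isomerase of isopentenyl diphosphate, was at 4.42, 21.7 and 9.21 FPKM in CRS mice and 12.8, 13.8 and 5.20 FPKM in CON mice. The groups overlapped over most of their range, and with a 4.91-fold spread over the 6 libraries Idi1 had the widest interval of the module, from -1.40 to 1.37 log2 units. Fdps, farnesyl diphosphate synthase, was at 1.46, 1.89 and 0.547 FPKM in CRS mice and 1.91, 1.12 and 2.79 FPKM in CON mice, the lowest level of the 30 genes. These values rest on 58 to 205 fragments per library, and transcripts of 6 other genes, 5 of them pseudogenes, matched 91.4% of the Fdps transcript at 95% identity or more. Among them the processed pseudogene Gm3571 was listed at 13.4, 9.13 and 12.2 FPKM in CRS mice and 15.5, 12.9 and 12.6 FPKM in CON mice, above Fdps in every library. How the counting shared fragments between these copies is not stated, so the Fdps values are uncertain. Without Fdps, the fewest fragments behind a value of the module were 151, for Tm7sf2.

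Squalene and lanosterol follow. Fdft1, squalene synthase, was at 25.3, 25.2 and 28.1 FPKM in CRS mice and 22.8, 24.9 and 37.3 FPKM in CON mice. Transcripts of Ctsb and of the pseudogene Gm6781 matched 54.7% of its transcript, and 18.3% of its exon bases overlap Ctsb on the opposite strand. Ctsb, a lysosomal protease gene, was at 233.8 to 311.1 FPKM in CRS and 108.0 to 244.2 FPKM in CON, and its part in the Fdft1 values was not tested. Sqle, squalene epoxidase, was at 16.6, 23.9 and 15.9 FPKM in CRS mice and 14.9, 19.4 and 23.8 FPKM in CON mice. The 6 values of Sqle interleaved between the groups, with a log2 fold change of -0.04 (SE 0.32). Lss, lanosterol synthase, was at 4.35, 10.2 and 4.32 FPKM in CRS mice and 5.56, 4.76 and 4.12 FPKM in CON mice. CRS replicate 2 stood above the other 5 libraries of Lss, which lay within 4.12 to 5.56 FPKM.

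Lanosterol is turned into cholesterol by the remaining enzymes. Cyp51, the lanosterol demethylase, was at 25.4, 39.9 and 28.8 FPKM in CRS mice and 28.9, 31.2 and 39.4 FPKM in CON mice, with CRS replicate 2 just above the CON range and the other CRS mice below it. Tm7sf2, a sterol reductase, was at 3.24, 1.94 and 2.52 FPKM in CRS mice and 3.05, 3.18 and 2.58 FPKM in CON mice. Msmo1, the methylsterol monooxygenase, was at 38.5, 29.4 and 40.3 FPKM in CRS mice and 31.5, 37.1 and 32.6 FPKM in CON mice. Both Tm7sf2 and Msmo1 were lowest in CRS replicate 2. Nsdhl and Hsd17b7 act with Msmo1 to remove methyl groups from the ring. Nsdhl was at 11.7, 16.0 and 14.3 FPKM in CRS mice and 13.0, 13.7 and 12.0 FPKM in CON mice. Hsd17b7 was at 6.67, 18.1 and 6.75 FPKM in CRS mice and 9.89, 8.91 and 9.14 FPKM in CON mice. The 3 CON values of Hsd17b7 lay within 1 FPKM of each other, while its CRS values lay on both sides of them.

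Ebp, the sterol isomerase, was at 25.6, 15.2 and 25.5 FPKM in CRS mice and 17.9, 25.7 and 19.9 FPKM in CON mice. Ebp and Nsdhl are X-linked, and their values in CON replicate 1, the library with Xist, were 17.9 and 13.0 FPKM, inside the range of the other 5 libraries. Sc5d, the sterol desaturase, was at 9.51, 17.8 and 11.3 FPKM in CRS mice and 10.7, 14.6 and 11.8 FPKM in CON mice. Dhcr7, which reduces 7-dehydrocholesterol to cholesterol and so takes it from the skin's vitamin D path, was at 3.43, 10.9 and 3.16 FPKM in CRS mice and 5.80, 6.28 and 5.61 FPKM in CON mice. CRS replicate 2 was 1.84 times the CON mean of Dhcr7, and the mean of CRS replicates 1 and 3 was 0.559 times it. The log2 fold change over all 6 libraries was -0.26 (SE 0.48).

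**Figure D2:**
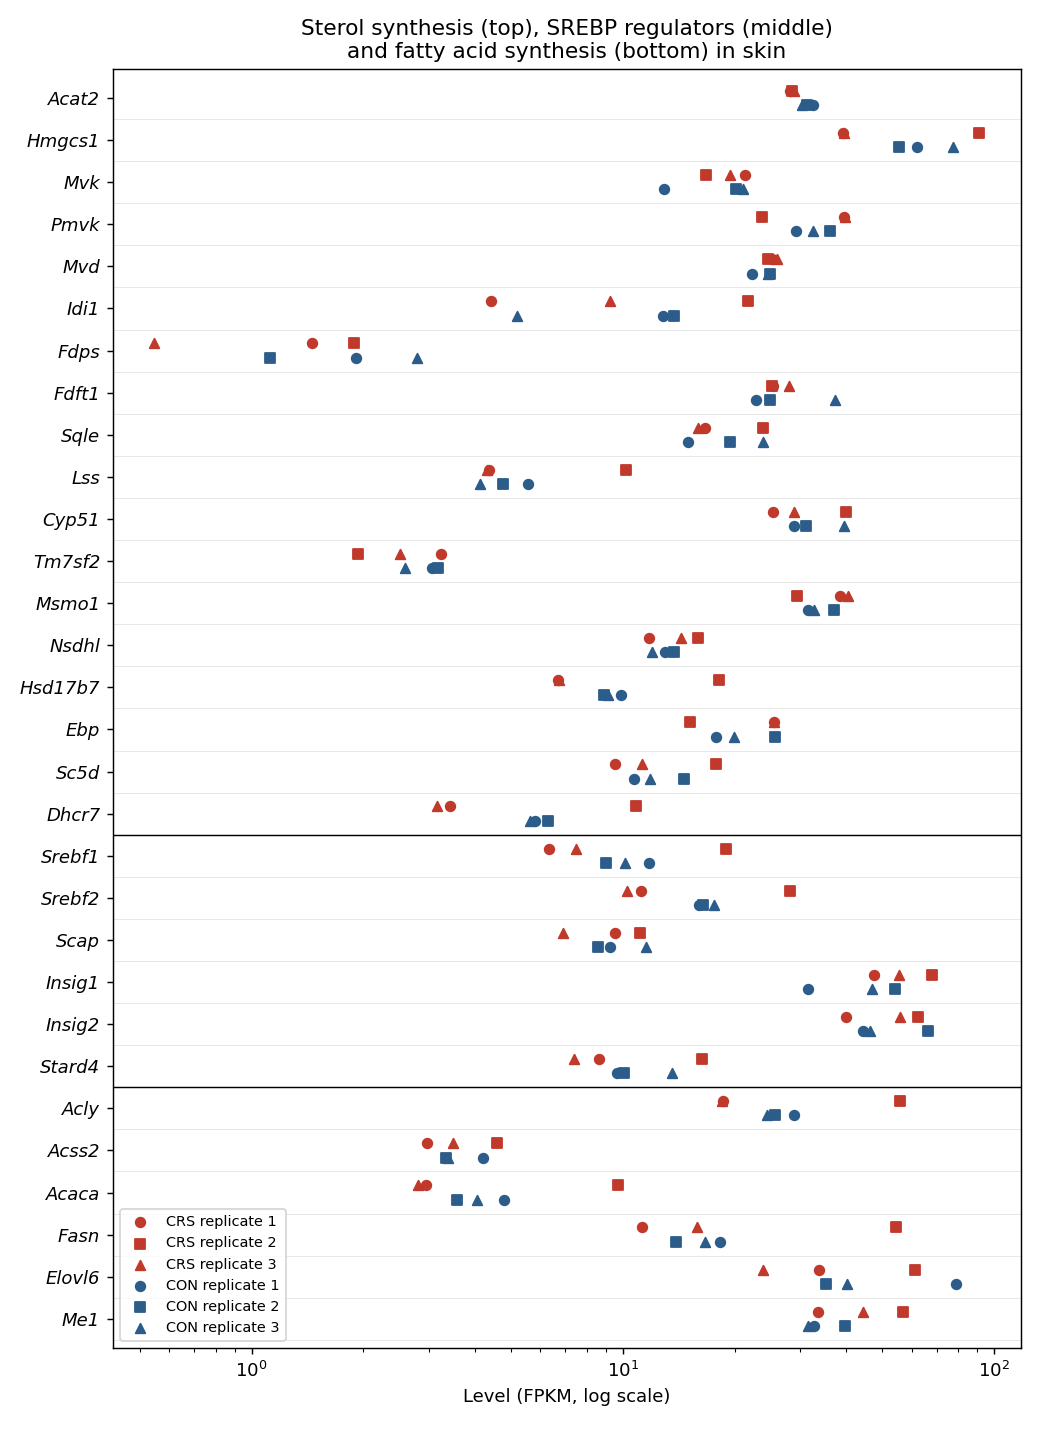
Level of each gene in each library in FPKM on a log axis, with CRS libraries in red above CON libraries in blue and a marker shape for each replicate. Acat2 and Mvd sit within 1.15-fold and 1.17-fold, while Hsd17b7, Dhcr7, Srebf2, Acly and Fasn have CRS replicate 2 (red square) to the right of all other libraries.

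Among the regulators, the genes of the SREBP proteins split the CRS mice. Srebf1, which encodes the form tied mainly to fatty acid genes, was at 6.31, 19.0 and 7.46 FPKM in CRS mice and 11.8, 9.02 and 10.2 FPKM in CON mice. Srebf2, which encodes the form tied mainly to sterol genes, was at 11.2, 28.1 and 10.2 FPKM in CRS mice and 16.1, 16.4 and 17.6 FPKM in CON mice. In both genes CRS replicate 2 was above every CON mouse and CRS replicates 1 and 3 were below every one. The SD of Srebf2 was 10.1 FPKM around a mean of 16.5 FPKM in CRS and 0.82 FPKM around a mean of 16.7 FPKM in CON (n = 3 each). The log2 fold changes were -0.09 (SE 0.44) for Srebf1 and -0.17 (SE 0.41) for Srebf2, and neither passed the test.

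Scap, the escort of SREBP, was at 9.53, 11.1 and 6.89 FPKM in CRS mice and 9.22, 8.55 and 11.6 FPKM in CON mice, with no separation of the groups. Insig1, an SREBP target that closes the feedback loop, was at 47.4, 68.1 and 55.3 FPKM in CRS mice and 31.6, 53.9 and 46.8 FPKM in CON mice. All 3 CRS values of Insig1 exceeded CON replicates 1 and 3, and 1 of them was below CON replicate 2. Its log2 fold change was 0.39 (SE 0.33, 95% interval -0.37 to 1.15, exact permutation p = 0.2), and its unadjusted p of 0.275 was the smallest of the module. Without CON replicate 1 the log2 fold change was 0.16, and under median-of-ratios scaling it was 0.63. With each library's length trend removed it was 0.61 with an unadjusted p of 0.048. That correction also removed differences in level between libraries, the median of all genes tested going from -0.20 to 0.022. Under that correction, added after the data were seen, 2 of the 30 genes had an unadjusted p under 0.05, Insig1 and Me1, both higher, where 2.67% of all genes were higher and 1.17% lower. Insig2, a related retention protein, was at 39.9, 62.4 and 55.7 FPKM in CRS mice and 44.4, 66.3 and 46.1 FPKM in CON mice, a log2 fold change of 0.01 (SE 0.33). Stard4, a carrier of cholesterol between membranes, was at 8.62, 16.4 and 7.40 FPKM in CRS mice and 9.64, 10.04 and 13.6 FPKM in CON mice. Of the 6 regulators, 2 had a log2 fold change above 0 and 4 below, with a median of -0.097.

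The fatty acid genes held the highest value relative to control of any gene in the module, in 1 mouse. Fasn, the fatty acid synthase, was at 11.2, 54.5 and 15.8 FPKM in CRS mice and 18.2, 13.9 and 16.7 FPKM in CON mice. CRS replicate 2 was 3.35 times the CON mean, and the mean of CRS replicates 1 and 3 was 0.831 times it. The log2 fold change was 0.40 (SE 0.55). Acly, which makes cytosolic acetyl-CoA from citrate, was at 18.6, 55.6 and 18.4 FPKM in CRS mice and 28.8, 25.7 and 24.4 FPKM in CON mice. Acaca, the acetyl-CoA carboxylase that commits carbon to fatty acids, was at 2.95, 9.68 and 2.80 FPKM in CRS mice and 4.77, 3.57 and 4.05 FPKM in CON mice. Both had CRS replicate 2 above and CRS replicates 1 and 3 below every CON mouse. The processed pseudogene Gm5182 matched 64.3% of the Acaca transcript and was listed at 2.62 FPKM in CRS replicate 2 and at most 0.321 FPKM in the other libraries.

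Acss2, which makes acetyl-CoA from acetate, was at 2.98, 4.57 and 3.49 FPKM in CRS mice and 4.21, 3.34 and 3.38 FPKM in CON mice, a log2 fold change of 0.00 (SE 0.34). Elovl6, the elongase of palmitate, was at 33.7, 61.3 and 23.8 FPKM in CRS mice and 78.8, 35.3 and 40.2 FPKM in CON mice. It was 1 of 2 genes of the module with the highest value in CON replicate 1, the library rich in muscle and mitochondrial transcripts, the other being Acat2. Thermogenic adipocyte markers summed to 354.4 FPKM in that library and to 113.4 to 212.3 FPKM in the other 5. These sums include Elovl3 at 37.6 to 116.9 FPKM and Cidea at 9.37 to 51.7 FPKM over the 6 libraries. Both genes are also among the sebaceous gland markers used below, so the sums do not measure thermogenic fat alone. Of the sum in CON replicate 1, 181.7 and 85.0 FPKM were Cox8b and Cox7a1, which muscle also expresses. Ucp1, the defining gene of thermogenic fat, was at 0.291 FPKM there and at up to 1.53 FPKM in CRS replicate 1. The part of muscle or of thermogenic fat in the Elovl6 value of CON replicate 1 was not tested. The log2 fold change of Elovl6 was -0.39 over all libraries and -0.039 without CON replicate 1. Me1, the malic enzyme that supplies NADPH, was at 33.6, 56.8 and 44.4 FPKM in CRS mice and 32.7, 39.6 and 31.6 FPKM in CON mice. Its log2 fold change was 0.35 (SE 0.31, exact permutation p = 0.2). It was 0.58 with an unadjusted p of 0.030 under the length correction, and 0.59 under median-of-ratios scaling. The Me1 transcript was matched over 60.1% of its length by 2 processed pseudogenes and a lincRNA. Summed over the 6 genes, fatty acid synthesis was 103.0, 242.4 and 108.7 FPKM in CRS mice and 167.5, 121.5 and 120.2 FPKM in CON mice. Of the 6 genes, 5 had a log2 fold change above 0 and 1 below, with a median of 0.050.

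CRS replicate 2 was the highest of the 6 libraries in 18 of the 30 genes, where the share was 29.2% of all genes tested and 39.9% of genes of at least 1 FPKM. It was highest in 9 of 18 sterol genes, 4 of 6 regulators and 5 of 6 fatty acid genes, and it was lowest in 4 genes, Pmvk, Tm7sf2, Msmo1 and Ebp. In 9 genes CRS replicate 2 was above and CRS replicates 1 and 3 were below every CON mouse: Hmgcs1, Cyp51, Hsd17b7, Dhcr7, Srebf1, Srebf2, Stard4, Acly and Acaca. That arrangement held in 15.2% of all genes tested and in 25.7% of genes of at least 1 FPKM, so 9 of 30 was near the share of expressed genes. The median deviation of the 30 genes from their own mean was -0.27, 0.41 and -0.14 log2 units in CRS replicates 1 to 3 and -0.02, 0.02 and -0.04 in CON replicates 1 to 3.

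**Figure D3:**
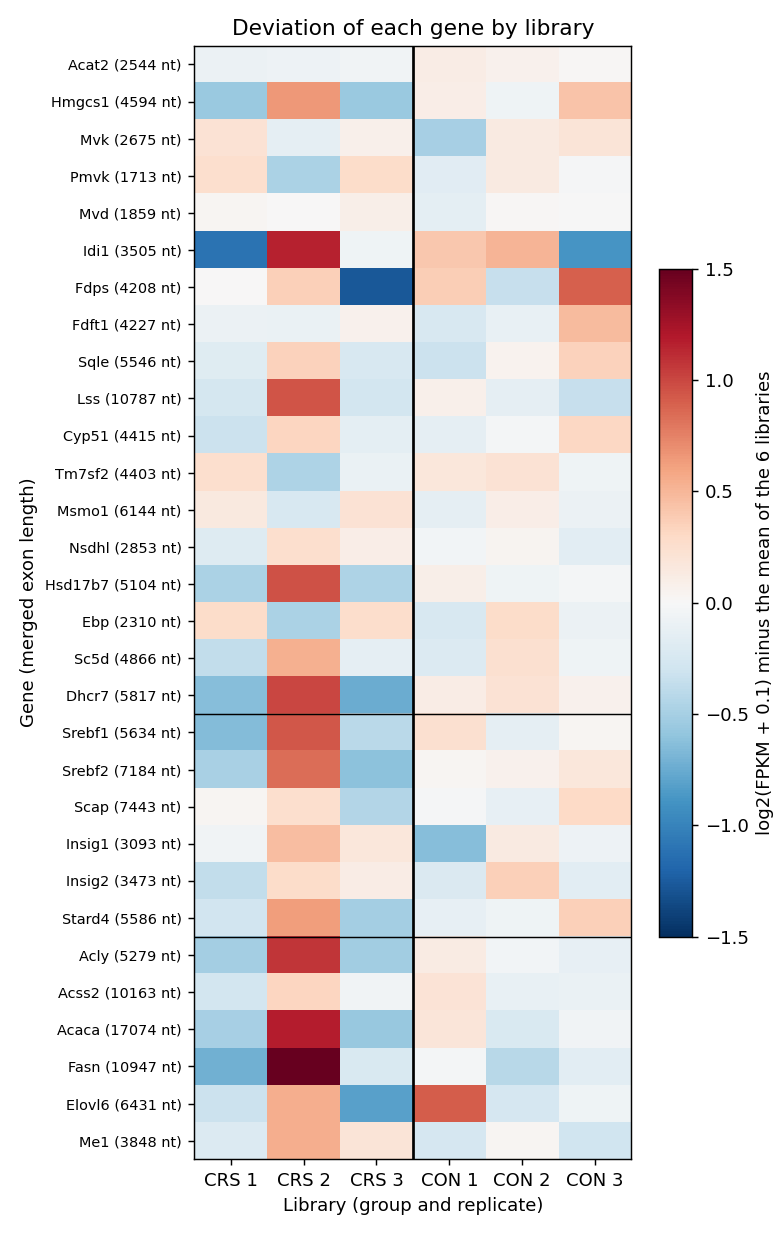
Deviation of each gene from its mean over the 6 libraries, in log2(FPKM + 0.1), with CRS libraries left of CON libraries and the merged exon length beside each gene. CRS replicate 2 is red for most genes and the lowest of the 6 libraries for Pmvk, Tm7sf2, Msmo1 and Ebp, and CON libraries are mostly pale.

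Exon length moved with this split. The 18 genes highest in CRS replicate 2 had a median merged exon length of 5412 nt and the other 12 genes one of 3840 nt, while the module's median was 4730 nt and that of genes of at least 1 FPKM 3506 nt. Of the 4 members of 7500 nt and over, 4 were highest in CRS replicate 2, where 73.4% of all genes of that length were. Of the 10 members of 5000 to 7500 nt, 7 were, against 64.4% of genes, and of the 8 members of 3500 to 5000 nt, 5 were, against 50.9%. Of the 5 members of 2500 to 3500 nt, 2 were, against 33.6%, and of the 3 members of 1500 to 2500 nt, Pmvk, Mvd and Ebp, 0 were, against 15.1%. These classes use merged exon length, which can exceed the length of the transcripts made. In the 4 longest members the longest coding transcript has 4667 nt (Lss), 2931 nt (Acss2), 9513 nt (Acaca) and 10050 nt (Fasn). Classes by transcript length were not tested. Each library's trend over exon length was then removed together with its level, a correction added after the data were seen. The median difference between CRS replicate 2 and the CON mean was then 0.15 log2 units for the 30 genes, where it had been 0.34. For genes of at least 1 FPKM it was 0.02, where it had been 0.15. By list, the corrected median was -0.056 for the sterol genes (0.17 before), 0.18 for the regulators (0.62 before) and 0.51 for the fatty acid genes (0.90 before). For single genes the corrected difference was 1.11 for Fasn (1.75 before), 0.98 for Idi1 (1.15 before), 0.67 for Acly (1.08 before) and 0.21 for Srebf2 (0.75 before). Tm7sf2 and Msmo1, both low in that mouse, went to -0.88 and -0.67. Their merged exon lengths, which the correction used, were 4403 and 6144 nt. Their longest coding transcripts have only 1498 and 2044 nt, so these 2 corrected values are uncertain.

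**Figure D4:**
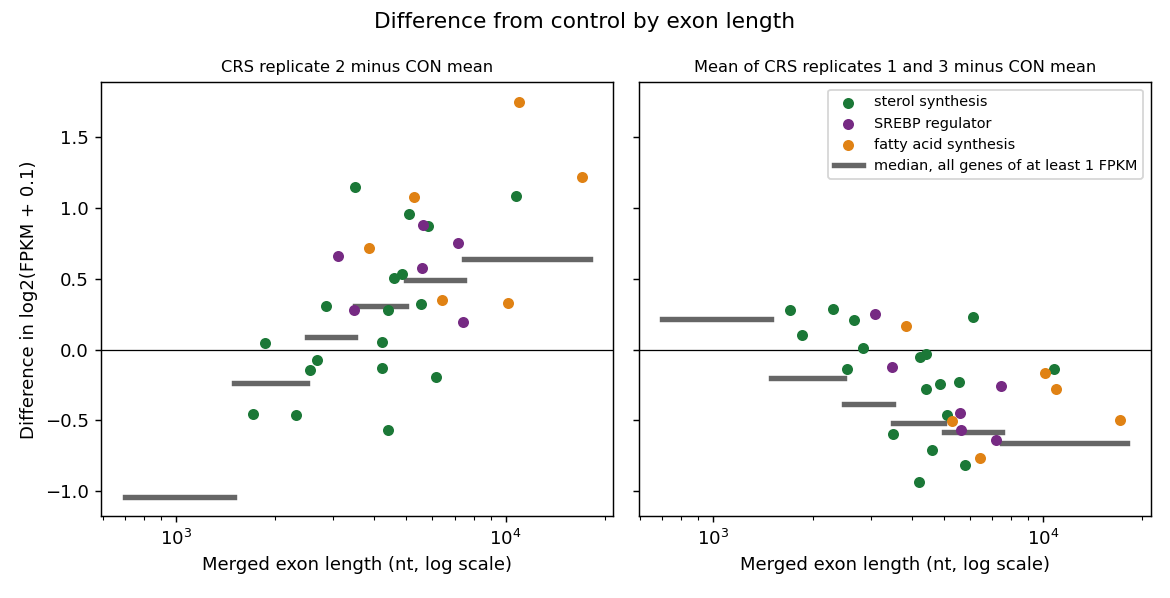
Difference from the CON mean in log2(FPKM + 0.1) against merged exon length (log axis) for CRS replicate 2 (left) and for the mean of CRS replicates 1 and 3 (right); grey bars are medians of all genes of at least 1 FPKM in 6 length classes. The medians of long genes are higher in CRS replicate 2 and lower in CRS replicates 1 and 3. Most members of long merged length lie on the same sides, and Fasn at 1.75 is the highest point. Msmo1, whose longest coding transcript has 2044 nt, does not lie on those sides.

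Without CRS replicate 2, 22 of the 30 genes had a log2 fold change below 0, with a median of -0.24. Of genes of at least 1 FPKM, 73.2% were below 0 with a median of -0.41, and of all genes tested 61.2% with a median of -0.21. Each library's length trend and level were also removed. The median of CRS replicates 1 and 3 against the CON mean was then 0.29 for the 30 genes, on the other side of 0. It was -0.016 for genes of at least 1 FPKM. At an unadjusted p under 0.05, 6 genes were lower, Hmgcs1, Hsd17b7, Dhcr7, Srebf1, Srebf2 and Acly, and 0 higher, beside 14.6% lower and 2.49% higher of all genes and 27.4% lower of genes of at least 1 FPKM. Their log2 fold changes ran from -0.82 (SE 0.17) for Dhcr7 and -0.71 (SE 0.19) for Hmgcs1 to -0.47 (SE 0.14) for Hsd17b7. After the length correction the same differences were -0.26 for Dhcr7, -0.19 for Hmgcs1, -0.039 for Srebf2, -0.014 for Srebf1, 0.045 for Acly and 0.075 for Hsd17b7. No gene passed the adjusted threshold there either, the smallest limma adjusted p of the module being 0.192.

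Markers of cells that make much lipid differed between the libraries as well. All 12 sebaceous gland markers had a fold change above 0, where 32.2% of all genes tested did. They summed to 509.0, 396.4 and 573.6 FPKM in CRS mice and 341.2, 441.6 and 240.9 FPKM in CON mice. All 12 were detected. The 12 adipocyte markers, also all detected, summed to 515.3, 900.9 and 1127 FPKM in CRS mice and 1107, 983.1 and 574.5 FPKM in CON mice. CRS replicate 2, where 18 genes of the module were highest, held the lowest sebaceous sum of the 3 CRS mice and a middle adipocyte sum. Single markers went both ways in it. The adipocyte markers Plin1, Plin4, Lipe, Pnpla2 and Lep and the sebaceous markers Krt79, Mc5r, Far2 and Acsbg1 were highest in CRS replicate 2 of all libraries. Mgst1, Fabp4 and Retn were lowest in it, and the rest of both lists lay between. The exon length trend of CRS replicate 2 was not removed from these marker values, and its part in them was not tested. The 8 markers of hair matrix and proliferation summed to 69.0, 143.2 and 74.7 FPKM in CRS mice and 159.2, 131.0 and 148.3 FPKM in CON mice, with CRS replicates 1 and 3 below every other library. The part of these cell types in the module's values was not tested.

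The neighbouring lipid genes did not pass the test either, with 0 genes at an unadjusted p under 0.05 in each of the 7 lists that follow. For their directions, 32.2% of all genes tested had a fold change above 0. Of 18 genes of fatty acid desaturation, elongation and activation, 12 had a fold change above 0, with a median of 0.17. Elovl3, an elongase of sebaceous and thermogenic fat cells, was at 97.9, 69.0 and 116.9 FPKM in CRS mice and 55.2, 69.1 and 37.6 FPKM in CON mice, a log2 fold change of 0.82 (SE 0.37). CRS replicate 2 was just below CON replicate 2. Elovl7, another elongase, was at 30.9, 33.1 and 27.8 FPKM in CRS mice and 10.6, 24.8 and 26.5 FPKM in CON mice, without overlap. Its log2 fold change was 0.67 (SE 0.39, exact permutation p = 0.1). Of the 18 genes, 2 were higher and 1 lower without overlap, beside 1.65% and 5.19% of all genes tested.

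In cholesterol uptake, storage and efflux, 7 of 16 genes were above 0, with a median of -0.056. Abcg1, a cholesterol exporter, was at 7.46, 14.0 and 10.5 FPKM in CRS mice and 3.66, 8.45 and 6.63 FPKM in CON mice, a log2 fold change of 0.80 (SE 0.41). Soat2, a sterol esterifying enzyme, was at or under 0.193 FPKM in CRS and 0.340 FPKM in CON, too low to read. In the isoprenoid branch that leaves the path at farnesyl diphosphate, 1 of 10 genes was above 0, with a median of -0.20, close to that of all genes. Coq2, of coenzyme Q synthesis, was at 16.7, 15.5 and 19.3 FPKM in CRS mice and 27.0, 22.2 and 22.9 FPKM in CON mice, and Fnta, a subunit of farnesyltransferase, averaged 21.2 ± 2.66 FPKM in CRS and 27.1 ± 1.87 FPKM in CON (SD, n = 3 each). Neither overlapped between the groups, and the log2 fold changes were -0.48 (SE 0.28) and -0.36 (SE 0.27). They were 2 of 10 genes in a list, where 5.19% of all genes tested were lower without overlap.

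Among SREBP proteases and other lipogenic regulators, 4 of 13 genes were above 0, with a median of -0.15. Thrsp, a lipogenic regulator, was at -0.61 (SE 0.49) on the log2 scale, and Mlxipl, the carbohydrate response factor, at -0.68 (SE 0.66). In NADPH and citrate supply 5 of 10 genes were above 0. G6pdx, which feeds the pentose phosphate path, was at 46.6, 75.7 and 61.7 FPKM in CRS mice and 39.2, 54.4 and 42.5 FPKM in CON mice, a log2 fold change of 0.42 (SE 0.32), and Mdh1 had -0.36 (SE 0.37). In triglyceride synthesis 6 of the 9 genes tested were above 0, with a median of 0.23. Of these 9, 1 was higher without overlap, beside 1.65% of all genes tested. The 2 with the lowest unadjusted p were both below 0, Gpat4 at -0.50 (SE 0.37) and Lpin1 at -0.66 (SE 0.50). In fatty acid oxidation 5 of the 11 genes tested were above 0, with Acads at -0.34 (SE 0.33) and Ppara at 0.53 (SE 0.57).

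The start regions of the genes were read because SREBP is known to act at a short sterol response element together with NF-Y, which binds CCAAT. RefSeq windows of 300 bases, 250 before and 50 after a start (GRCm38.p6), were found for 26 of the 30 genes. CCAAT, on either strand, was in a window of 22 of the 26 genes (84.6%) and in 41.1% of all 27025 genes with a window. The element core TCACNCCA, on either strand, was in 3 of the 26 (11.5%) and in 4.97% of all genes. The E-box form TCANNTGA was in 1 of the 26 (3.85%) and in 9.56% of all genes. A gene counted if any of its windows held a match. Per window, CCAAT was in 65.7% of the 35 member windows and in 37.4% of all 32851. TCACNCCA was in 8.57% and 4.36% of them, and TCANNTGA in 2.86% and 8.39%. The shares were not matched for base composition. In all 8 overlapping forms were searched, and TCACNCCA and TCANNTGA were chosen as shorter forms after the matches of the first 6 had been seen. Of the longer forms, TCACNCCAC was in 1 of the 26 genes, Hmgcs1, and in 1.44% of all genes, TCACNCCAT in 2, Msmo1 and Srebf2, and in 0.859% of all genes, and TCACNCCAC with an A before it in 0 and in 0.270% of all genes. CACCCCAC was in 2 of the 26, Acat2 and Hmgcs1, and in 3.30% of all genes, and TCACNTGA in 1, Insig2, and in 4.78% of all genes. Shown here are the 3 windows with TCACNCCA, since they belong to 2 genes that were highest in CRS replicate 2, Hmgcs1 and Srebf2, and to 1 that was lowest in it, Msmo1. Capitals mark TCACNCCA and CCAAT on either strand (CCAAT on the other strand reads ATTGG). The Hmgcs1 window is chr13:119690101-119690400 on the + strand, with the core at position -137 from the start. The Srebf2 window is chr15:82147019-82147318 on the + strand, with the core at -162, and the Msmo1 window is chr8:64733529-64733828 on the - strand, with the core at -177.
Hmgcs1: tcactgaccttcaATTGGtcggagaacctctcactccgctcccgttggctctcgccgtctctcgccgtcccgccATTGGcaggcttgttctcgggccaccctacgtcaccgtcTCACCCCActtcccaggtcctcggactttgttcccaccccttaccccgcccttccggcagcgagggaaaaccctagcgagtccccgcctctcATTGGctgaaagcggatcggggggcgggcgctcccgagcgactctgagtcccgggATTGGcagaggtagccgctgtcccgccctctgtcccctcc
Srebf2: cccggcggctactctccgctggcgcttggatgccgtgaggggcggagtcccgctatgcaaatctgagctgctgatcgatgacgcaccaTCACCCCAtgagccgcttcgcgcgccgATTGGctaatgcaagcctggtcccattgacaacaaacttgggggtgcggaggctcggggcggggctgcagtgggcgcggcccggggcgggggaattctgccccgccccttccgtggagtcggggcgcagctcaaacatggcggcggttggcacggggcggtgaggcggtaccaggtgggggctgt
Msmo1: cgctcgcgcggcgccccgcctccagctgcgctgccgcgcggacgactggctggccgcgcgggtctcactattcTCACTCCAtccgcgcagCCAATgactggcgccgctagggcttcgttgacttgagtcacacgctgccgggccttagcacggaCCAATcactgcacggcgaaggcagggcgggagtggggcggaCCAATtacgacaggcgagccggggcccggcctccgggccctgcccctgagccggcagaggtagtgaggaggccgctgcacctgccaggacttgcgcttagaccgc
The windows hold 4, 1 and 3 matches to CCAAT. A match describes the letters of the window only.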

How the data were processed

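The authors deposited 1 file per library with FPKM values for 54146 Ensembl gene IDs, for 3 CRS and 3 CON libraries. Per the labels' protocols, Trizol RNA went into standard Illumina libraries. Per the submitters' processing notes, HISAT2 and GRCm39 were used for alignment; the counting program, annotation, strand and versions are not given in the sources used here, so fragments of overlapping genes may have been counted together. GENCODE M21 (GRCm38) supplied symbols and merged exon lengths for 54079 of the IDs. Depth came from FPKM times exon length, which took whole multiples of 1 step (98.1% to 98.3% of values up to 100 fragments within 0.05 of a whole number).

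Genes averaging 0.1 FPKM or more were fitted as log2(FPKM + 0.1) with limma 3.58.1 (R 4.3.3), mean-variance trend, Benjamini-Hochberg adjustment, threshold 0.05; the pseudocount makes fold changes of low genes too small. Copies were sought with blastn (95% identity, 100 nt). Length trends were removed by subtracting each library's whole lowess curve over exon length (span 0.3), which also removes differences in level between libraries. Figures used Python 3.11.15 and matplotlib 3.10.9.

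The members and lists were chosen with earlier results of these data known. Named were all 30 members and, from each other list, the 2 genes with the lowest unadjusted p. Alternatives were another pseudocount, filters, scaling, no trend, a replicate block and each library left out; 3 more were added after seeing the data: both outlying libraries left out, the length correction and voom. The descriptions of CRS replicate 2, of exon length classes and of the promoter motif forms were also chosen after seeing the data. No gene set test was run.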

Additional observations from a re-analysis of the deposited data

How the results depend on the processing

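In each setting tried, 0 genes passed the adjusted threshold in either direction, and 0 of the 30 members did. Pseudocount 1, the filter at 1 FPKM, no filter, no mean-variance trend and voom kept the sign of all 30 log2 fold changes. The sign changed for 10 members under median-of-ratios scaling and under the exon length correction, and for 9 without both outlying libraries. That scaling put the median of all genes at 0.010, against -0.20 as deposited, and the members' split at 26 higher and 4 lower. The length correction also gave 26 and 4, against 16 and 14 as deposited and under voom. The share of all genes above 0 was not counted under the scaling or the correction. The median of the 30 members was 0.24 under that scaling, 0.22 under the length correction and 0.0043 as deposited. The median of the sterol genes was 0.24 under that scaling and 0.22 under the length correction, against -0.0035 as deposited. Median-of-ratios scaling divides each library by 1 factor. The factors were 0.93, 1.11 and 0.78 in CRS replicates 1 to 3 and 1.16, 1.04 and 1.11 in CON replicates 1 to 3. It moved the fold changes of the members by a nearly equal amount. The length correction also removed each library's level and put the median of all genes at 0.022. The sign changes under both settings thus came with a shift shared across genes.

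Values that changed sign, in log2 fold change, were as follows. Under median-of-ratios scaling: Acat2 0.10, Idi1 0.22, Fdft1 0.16, Sqle 0.20, Cyp51 0.15, Tm7sf2 0.022, Srebf1 0.15, Srebf2 0.066, Scap 0.13, Stard4 0.13. Under the exon length correction: Acat2 0.076, Idi1 0.21, Fdft1 0.15, Sqle 0.18, Cyp51 0.14, Tm7sf2 0.019, Srebf1 0.14, Srebf2 0.046, Scap 0.11, Stard4 0.12. Without CRS replicate 2 and CON replicate 1: Mvk -0.017, Lss -0.030, Hsd17b7 -0.42, Sc5d -0.34, Insig2 -0.23, Acly -0.43, Acss2 -0.058, Acaca -0.39, Fasn -0.19. When single mice were left out, the range was Mvk -0.11 to 0.24, Pmvk -0.093 to 0.28, Idi1 -0.60 to 0.54, Fdft1 -0.22 to 0.13, Sqle -0.23 to 0.12, Lss -0.14 to 0.47, Cyp51 -0.28 to 0.044, Hsd17b7 -0.47 to 0.25, Ebp -0.089 to 0.29, Sc5d -0.25 to 0.20, Dhcr7 -0.82 to 0.054, Srebf1 -0.57 to 0.22, Srebf2 -0.64 to 0.089, Scap -0.26 to 0.084, Insig2 -0.13 to 0.20, Stard4 -0.45 to 0.12, Acly -0.50 to 0.29, Acss2 -0.16 to 0.14, Acaca -0.50 to 0.38, Fasn -0.28 to 0.86.

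Median log2 fold changes with each mouse left out ran from -0.14 to 0.04 for the sterol genes, -0.35 to 0.11 for the regulators and -0.39 to 0.32 for the fatty acid genes, each lowest without CRS replicate 2. Deviations of same-numbered mice correlated at -0.12, 0.06 and 0.09 over genes, and those of differently numbered mice at -0.29 to 0.30. These values cannot decide whether same-numbered mice were paired or shared a batch. With the replicate block 0 genes passed, 256 being higher and 370 lower by unadjusted p. Counts at that level were 707 higher and 4148 lower without CRS replicate 2, and 768 and 3081 without both outlying libraries. The 95% intervals reached 0.60 to 1.39 log2 units to either side, and Fdps also rests on few fragments. Among members that kept their sign, leaving out single mice gave -0.94 to -0.12 for Fdps, 0.16 to 0.55 for Insig1, 0.16 to 0.54 for Me1 and -0.76 to -0.039 for Elovl6.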
